A study of Mus musculus with 28 samples.

Results

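Distal regions with several summits are stretches of open chromatin, away from annotated transcription start sites (TSSs), in which the peak lists mark 4 or more separate points of highest accessibility. They were taken from the ATAC-seq peak lists of purified retinal Müller cells, 1 list per genotype. On chromosomes 1 to 19, overlapping entries of a list were merged to 1 region. It kept the summit and the values of the entry with the highest signal. All overlapping entries had the same start and end, so a merged region is 1 peak listed with several summits. A region was chosen when it held at least 4 distinct summits and its strongest summit lay more than 1 kb from any TSS of the GENCODE M21 annotation (mm10). This gave 989 of 45198 regions in the control list and 1527 of 63598 in the db/db list. The regions were thus chosen by values measured in these lists (summit number, signal and position), and these values are given as a description with no test.

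ATAC-seq, in which a transposase cuts accessible DNA and adds sequencing adapters to it, had been carried out by the omni-ATAC method on Müller cells of db/db mice and of controls, all 6 months old. Db/db mice are homozygous for the db mutation of the leptin receptor gene Lepr on a BKS background and become obese and diabetic. The breeding stock came from 2 suppliers, and the controls, labelled WT, came from the same breeding. The study's methods name wild-type and heterozygous mice as controls, so heterozygotes may be among them. The cells were enriched by magnetic sorting for CD29 after removal of CD11b-positive and CD31-positive cells, so other retinal cells can remain in the samples. The study made 2 replicates per genotype, and the lists used here are attached to replicate 1 of each, so every comparison between genotypes sets 1 list against 1 list with no replicate check and no p-value. The peak caller, its threshold and the depth behind each list are not given in the sources used here. The db/db list was longer, and how far depth or threshold sets the numbers of regions and summits was not tested.

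Distal regulatory elements such as enhancers lie in introns or between genes and are bound by transcription factors, which displace nucleosomes. A wide open stretch can hold several such sites side by side, and a peak caller then reports several summits within 1 region. Müller cells are the radial glia of the retina. Their identity rests on transcription factors that act late in retinal development, among them the nuclear factor I proteins NFIA, NFIB and NFIX, SOX2, SOX8 and SOX9, LHX2 and the Notch effectors HES1 and HES5, together with eye field factors such as PAX6, SIX3 and RAX.

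Sequence was read only from annotated transcripts and from promoter windows, so it is shown for members whose strongest summit lies in an exon or next to an annotated start. The first pair of windows is shown because these members lie beside genes of eye field factors. Six3os1 is a noncoding RNA gene transcribed opposite Six3, and the window on chr17:85608902-85609052 lies in one of its exons. Pax6os1 is the corresponding noncoding gene at Pax6, and the window on chr2:105660123-105660273 lies in an exon of Paupar, a noncoding RNA of the same locus. The Zic5 window, chr14:122464147-122464297, is shown because it lies within the coding sequence of a zinc finger transcription factor gene. The windows in the predicted gene Gm37194, chr14:50062591-50062741, and in the noncoding gene AC129205.1, chr19:21942250-21942400, are shown as examples with a strong signal. All are 151 bases of the plus strand of mm10 around the strongest control summit, and capitals mark the 11 bases centred on that summit.
Six3os1: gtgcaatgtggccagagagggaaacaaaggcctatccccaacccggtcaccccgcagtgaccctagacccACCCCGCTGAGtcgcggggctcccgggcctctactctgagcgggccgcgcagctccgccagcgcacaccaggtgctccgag
Pax6os1: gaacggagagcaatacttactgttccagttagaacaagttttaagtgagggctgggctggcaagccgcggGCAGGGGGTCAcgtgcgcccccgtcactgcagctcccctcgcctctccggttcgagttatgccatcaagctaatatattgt
Zic5: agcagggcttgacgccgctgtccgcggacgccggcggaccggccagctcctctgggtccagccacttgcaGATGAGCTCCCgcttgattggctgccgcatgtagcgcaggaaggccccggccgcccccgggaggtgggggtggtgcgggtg
Gm37194: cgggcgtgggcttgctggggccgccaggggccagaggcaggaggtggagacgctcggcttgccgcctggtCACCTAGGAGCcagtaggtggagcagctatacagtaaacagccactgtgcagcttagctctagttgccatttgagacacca
AC129205.1: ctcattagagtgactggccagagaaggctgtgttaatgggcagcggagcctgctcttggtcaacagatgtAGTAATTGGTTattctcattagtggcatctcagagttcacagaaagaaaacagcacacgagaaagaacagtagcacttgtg

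In the db/db list the same members were found with 4 to 5 summits, and their strongest summits lay 6 bp (Six3os1), 3 bp (Pax6os1), 1 bp (Zic5), 1 bp (Gm37194) and 5 bp (AC129205.1) from the control ones. The windows therefore show almost the same bases for both genotypes. They differed widely in base composition, with G and C at 68.9% in the Six3os1 window, 55.6% at Pax6os1, 72.8% at Zic5, 62.3% at Gm37194 and 45.7% at AC129205.1. They also differed in signal. Within the control list the percentile rank of the signal (100 being the strongest region) was 0.803 at Six3os1, 13.9 at Pax6os1 and 11.2 at Zic5, but 88.7 at Gm37194 and 89.3 at AC129205.1. The windows at the developmental regulator genes came from weak regions of the control list. The last pair had been picked for a strong signal, so its high ranks follow from the choice.

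A further sequence is shown because it is the member in an intron of Nfia, the gene of nuclear factor I A. The RefSeq annotation (GRCm38.p6) has there the start of Gm19417, 49 bp from the strongest summit of the control region chr4:97868326-97869527. The window chr4:97868960-97869259 is 300 bases on the minus strand, and capitals mark the 11 bases centred on the summit.
Gm19417: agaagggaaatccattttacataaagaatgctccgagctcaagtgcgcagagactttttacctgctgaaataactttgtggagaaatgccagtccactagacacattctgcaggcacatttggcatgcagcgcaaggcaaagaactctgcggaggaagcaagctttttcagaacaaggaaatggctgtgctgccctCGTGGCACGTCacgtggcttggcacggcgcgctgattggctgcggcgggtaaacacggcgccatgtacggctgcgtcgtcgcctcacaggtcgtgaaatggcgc

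The letters TTGGCA, which resemble a nuclear factor I half-site, occur at 2 places of this window on the printed strand. On either strand they occur in 14.1% of all 32851 RefSeq promoter windows of this length, so such a match is common. A full window of 151 exonic bases could be read for 19 control and 34 db/db members. TTGGCA was found in 2 of the 19 and in 6 of the 34, against 15.2% and 16.7% of the windows of distal regions with 1 to 3 summits. The homeodomain core TAATTA was found in 2 of 19 and 1 of 34, against 3.88% and 4.17%, and the AP-1 letters TGANTCA in 2 of 19 and 1 of 34, against 4.85% and 5.24%. Both strands were searched, and TTGGCA can overlap the full nuclear factor I palindrome, which no window of either list held. With so few windows the intervals were wide, from 2.94% to 31.4% for 2 of 19 (95% Wilson, counting error only).

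The chosen regions made up 3.27% of 30241 distal control regions (95% Wilson interval 3.08 to 3.48, counting error only) and 3.29% of 46355 distal db/db regions (3.14 to 3.46). The share was therefore nearly the same although the db/db list was longer. Of the control regions, 738 held 4 summits, 187 held 5, 52 held 6, 9 held 7 and 3 held 8. Of the db/db regions, 1158 held 4, 304 held 5, 55 held 6, 9 held 7 and 1 held 8. Just outside the threshold lay 2819 control and 4128 db/db distal regions with 3 summits. On the side of the distance, 68 control and 77 db/db members had their strongest summit 1000 to 1500 bp from a TSS, and 170 and 195 regions with 4 or more summits missed the rule at 500 to 1000 bp. A further summit within 1 kb of a TSS was present in 71 control and 72 db/db members.

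Regions with many summits were more often at promoters than regions with few. The share of regions that were distal was 77.3% at 1 summit, 62.8% at 2, 49.6% at 3, 39.3% at 4, 31.4% at 5 and 26.4% at 6 or more in the control list. In the db/db list it was 81.1%, 68.6%, 56.8%, 49.4%, 41.1% and 29.5%. In all, 36.4% of 2716 control regions and 46.2% of 3304 db/db regions with 4 or more summits were distal. The numbers at promoters were alike, 1727 and 1777, so the surplus of db/db regions with several summits lay almost entirely among the distal ones. The surplus of the whole db/db list was also mostly distal. Of all regions, 30241 of 45198 were distal in control (66.9%) and 46355 of 63598 in db/db (72.9%). The surplus is therefore not read as a trait of regions with several summits.

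**Figure D1:**
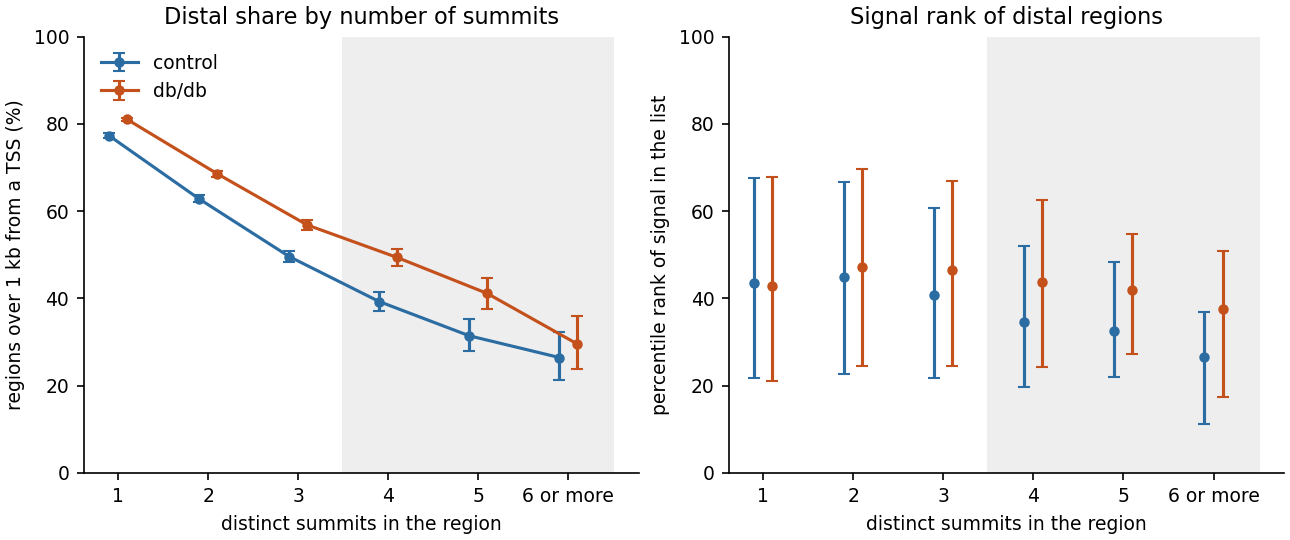
The left panel plots the share of regions over 1 kb from a TSS (%) against the number of distinct summits in a region, with 95% Wilson intervals, and the right panel the percentile rank of the signal of distal regions, as median with quartiles, for the control list (blue) and the db/db list (orange); grey marks the chosen regions. The distal share falls from 77.3% to 26.4% in control and from 81.1% to 29.5% in db/db, and the median rank at 4 or more summits is lower than at 1 to 3 summits in control (34.6, 32.6 and 26.5 against 43.6, 45.0 and 40.7).

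The members were wide regions. Their width had a median of 1332 bp (quartiles 1168 to 1528) in control and 1298 bp (1144 to 1458) in db/db, and ranged from 757 to 2646 bp and from 671 to 2734 bp. Other distal regions had a median of 643 and 584.5 bp. A larger width follows from the rule, which asks for 4 summits. Together the members covered 1.35 Mb in control and 2.02 Mb in db/db.

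The distance between neighbouring summits had a median of 276 bp (quartiles 220 to 360, 3297 distances) in control and 273 bp (220 to 357, 5026 distances) in db/db. In both lists 78.7% of the distances fell between 150 and 400 bp, and distances below 100 bp made up 1.03% and 1.23%. The bin with most distances was 200 to 250 bp, with 21.6% in control and 22.3% in db/db, followed by 250 to 300 bp with 20.5% and 20.1%. Distal regions with 2 or 3 summits had median distances of 304 and 295 bp. From first to last summit the members measured 943 bp in control and 934 bp in db/db. Library fragments had been selected by size before sequencing, and how far this or the peak caller's smoothing sets the spacing was not tested.

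**Figure D2:**
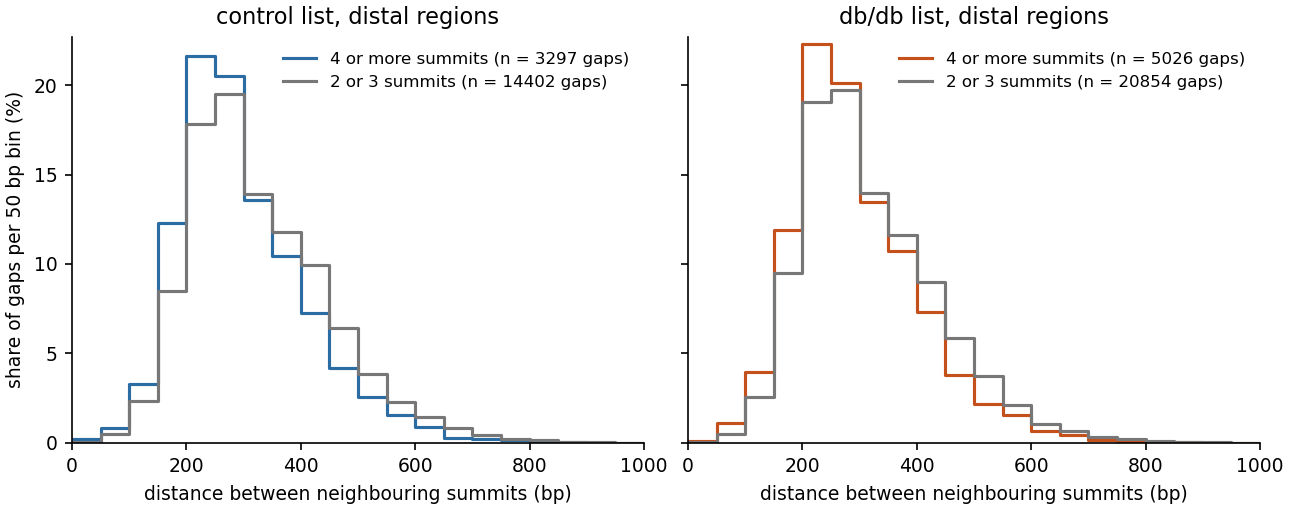
Histograms of the distance between neighbouring summits (bp, bins of 50 bp) as share of all distances (%) in distal regions, in the control list (left) and the db/db list (right), for regions with 4 or more summits and for regions with 2 or 3. In both lists the highest bin of the regions with 4 or more summits is 200 to 250 bp, with 21.6% and 22.3% of the distances.

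Within a region the summits were unequal in signal, the value given for each summit, whose scaling is not given in the sources used here. The second strongest summit had a median of 0.711 times the signal of the strongest in control and 0.699 times in db/db, and the weakest 0.275 and 0.297 times. Summits between the second and the weakest were not summarised. In db/db, regions with 4 or more summits at promoters had similar medians, 0.672 for the second and 0.247 for the weakest. Among members with 4 summits the strongest was the first or the last in 41.5% of control (38.0 to 45.1) and 37.3% of db/db regions, although these are 2 of the 4 positions, so it lay more often on an inner position.

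The strongest signal of the members was moderate. It had a median of 8.59 (quartiles 7.09 to 10.6) in control, where other distal regions had 9.81, and of 7.83 (6.09 to 9.96) in db/db, where they had 7.96. As percentile ranks within the whole list, the members had a median of 33.1 (19.4 to 50.3) in control and 43.1 (25.0 to 60.5) in db/db, against 43.7 and 44.4 for other distal regions. Regions with 4 or more summits at promoters ranked higher, at 50.3 and 59.5. By signal the members thus stood below other distal regions in the control list and close to them in the db/db list. By the −log10 p of the same summits they stood above them in both lists, with medians of 119 against 108 in control and 96.7 against 79.5 in db/db. With the db/db list reduced by −log10 p to the length of the control list, the median signal rank of its members was 30.8. The order within each list went the same way with more summits, with medians of 34.6, 32.6 and 26.5 at 4, 5 and 6 or more summits in control and 43.8, 41.9 and 37.6 in db/db.

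By place, 51.6% of the strongest summits of control members lay in introns (48.5 to 54.7), 43.0% between genes and 5.46% in exons. In db/db these shares were 55.3% (52.8 to 57.8), 39.8% and 4.91%. Other distal regions had 53.6%, 41.4% and 5.00% in control and 54.4%, 40.6% and 5.03% in db/db. By these shares the members were placed much like distal regions in general. The nearest TSS lay at a median distance of 13618 bp in control and 15490 bp in db/db, against 12874 and 13106.5 bp for other distal regions. It belonged to a protein-coding gene for 47.9% and 48.5% of the members, and to a noncoding gene or pseudogene for the rest. The nearest protein-coding start was farther, at a median of 38688 and 41939 bp. RefSeq starts were not part of the rule, and 1 lay inside 39 of 989 control and 53 of 1527 db/db members. In db/db 2.95% of members had the strongest summit within 1 kb of a RefSeq start, against 1.63% of other distal regions.

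Members within genes mostly had a protein-coding host. Where several genes held the strongest summit, a coding gene was taken first and then the longest, which favours such hosts. In control 564 members lay in 508 different host genes and in db/db 920 members in 779. The host was protein-coding for 87.1% and 86.7% of them and a long noncoding RNA gene for 12.1% and 12.7%. The median length of the host gene was 144 and 139 kb. Hosts of other distal regions were not compared, so these values are not read as a trait of the members. In all, 935 different genes were nearest to a control member and 1396 to a db/db member, of which 555 were the same.

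The members were spread over many genes, and few genes had several. In control 49 genes and in db/db 113 genes were nearest to 2 or more members. Another member lay within 100 kb of 18.4% of control and 27.0% of db/db members, the db/db list having more members to begin with. In control the most were 3 per gene, as at 9430078K24Rik, Dph5, Fam160a1 and Gm31452. In db/db Dlgap2, which codes for a postsynaptic scaffold protein, and Tox3, a gene of an HMG-box transcription factor, had 4 each, and 9430078K24Rik, B230118H07Rik and Dnmt3a were among the genes with 3. Dnmt3a codes for a DNA methyltransferase.

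Members of 1 gene could differ strongly in level. At Dlgap2 the db/db members had ranks of 6.35, 57.6, 14.5 and 68.7, and 1 of them, the weakest, had no overlapping control region, as was so for 31.4% of all db/db regions. At Tox3 they had ranks of 20.4, 10.1, 25.7 and 20.6, all in the lower part of the list, and 2 of the 4 had no overlapping control region.

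When each member was assigned to the nearest protein-coding gene instead, Zfp608, a gene of a zinc finger protein, had the most members in both lists, 5 in control and 6 in db/db. It was singled out after these counts had been seen. The control regions lay 25619 to 559672 bp from its start and had signal ranks of 4.06 to 64.0. Of the db/db members 3 lay over control members, and 1 had no control region beneath it. Next came Kif2a, Smim15 and Tenm4 with 4 members each in control, and Tox3 with 5 in db/db.

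The members with most summits were not those with the strongest signal. The control list had 3 members with 8 summits. Of these, 1 lay 7866 bp from Gm47744 and 10116 bp from Derl3, a gene of endoplasmic reticulum protein degradation (chr10:75880864-75883509, rank 46.9), and 1 lay 1119 bp from Nrp1, the neuropilin 1 gene (chr8:128356789-128359211, rank 9.43). The first overlapped a db/db region of 6 summits, and the second 3 separate db/db regions of which the strongest had 3 summits. Of the 3 members, 1 had no db/db region, as was so for 4.07% of all control regions. Next came members with 7 summits at Dip2b and Gm9509, with ranks of 27.4 and 18.1.

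In db/db 1 member had 8 summits, between genes near Gm47300 (chr11:75279172-75281862, rank 18.9), and overlapped 2 control regions, of which the stronger had 1 summit. The following members of 7 summits lay at Nol4l, AC091309.7, Gm47110 and Garem1, with ranks of 27.5, 15.4, 34.2 and 2.82. The intronic Nol4l member (chr2:153527893-153530626) had no control region. Over the others the control list held 2, 1 and 5 summits in the stronger region. The members with most summits in 1 list were therefore mostly reported in the other with fewer summits, as separate regions or not at all.

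The strongest members had 4 or 5 summits, and the other list held regions of high rank over them. In control the highest signal, 21.9 (rank 95.7), belonged to an exonic region of C18orf63, and the db/db list had it in second place with a rank of 98.1 and 4 summits. The next control members lay near Gm22968, Gm35998, Gm7729 and Gm15826 with ranks of 94.8, 94.4, 90.7 and 90.5, and the db/db regions over them had 3, 3, 3 and 2 summits. In db/db the first place belonged to a region of 5 summits 4421 bp from Pp2d1, a phosphatase-like gene, with a signal of 22.5 (rank 98.3). It was followed, after C18orf63, by members at 9030622O22Rik, with Foxa2 as the nearest coding gene, at Gm31763 in an intron of Reep3, and near Adgrd2-ps, with ranks of 96.8, 96.5 and 96.1. The control regions over them had ranks of 95.1, 89.0 and 93.2.

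Of 30 listed regulators of glial identity, 7 were host or nearest gene of a member in each list. All 30 had a region at their TSS in both lists, and 23 in control and 24 in db/db had any distal region. Their distal regions included 10 members of 133 in control (7.52%, 4.14 to 13.3) and 9 of 194 in db/db (4.64%, 2.46 to 8.58). Of all distal regions 3.27% and 3.29% were members. The intervals cover counting error only, several members share a gene, and the list was chosen with earlier results known, so no difference is read from these shares. The genes in both lists were Nfia, Nfib, Nfic, Six3, Notch2 and Tead1. Nfix had a member in control. Sox2, Lhx2, Hes5 and Rax were host or nearest gene of none.

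The nuclear factor I genes, which code for transcription factors of late progenitors and glia, held 7 of the 10 members in control and 5 of the 9 in db/db, all in introns. They also held 60 of the 133 distal regions of the list in control (45.1%) and 87 of the 194 in db/db (44.8%), so the db/db count is near their share of regions. For regions that overlap 1 to 1, ranks were also taken among the 42625 regions shared in this way, here called shared ranks, because ranks in the whole list rise for shared regions in the longer db/db list. In an intron of Nfib the control region chr4:82613758-82614936 had 5 summits and a shared rank of 40.3, and the db/db region 4 summits and 51.2, a change of 10.9 points. The member at chr4:82304145-82305432 had 4 and 5 summits and shared ranks of 12.9 and 20.6, and that at chr4:82383850-82385000 had 4 and 3 summits and 26.0 and 22.0. The member chosen in db/db alone, chr4:82549824-82550856, had 4 summits against 3 and shared ranks of 40.9 in db/db and 39.5 in control. The Nfib regions thus lay in the lower and middle part of both lists and differed by 1 summit between them.

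Nfia had a different member in each list. The control member whose sequence is shown above had 4 summits and a shared rank of 24.6, where the db/db region had 2 summits and 18.0. The db/db member, chr4:97947507-97948752, had 4 summits and a shared rank of 16.9, where the control region had 1 summit and 44.0. Its rank was thus 27.0 points lower in db/db while more summits were listed. At Nfic the intronic region chr10:81401341-81402532 had 4 summits in both lists and shared ranks of 4.84 and 10.2, near the bottom of both. Its strongest summit lay 1229 bp from an Nfic start in control and 1283 bp in db/db, close to the 1 kb limit. A second control member at Nfic, chr10:81429594-81431316, had 6 summits and a rank of 0.361 and lay 1287 bp from an Nfic start. The db/db list had there a region of 1 summit and one of 5. At Nfix the control member chr8:84743436-84744555 had 4 summits and the db/db region 3, with shared ranks of 18.4 and 24.1.

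Among the other regulators, the member of Six3, an eye field homeobox gene, lay between genes 24884 bp from the Six3 start (chr17:85645362-85646596). It had 5 summits and a shared rank of 55.9 in control and 4 summits and 63.6 in db/db, the highest level among these members in both lists. Notch2, a receptor gene of the Notch pathway, had an intronic control member (chr3:98063033-98064413, 4 summits, shared rank 39.7) over which db/db had 3 summits and 49.6. Its db/db member (chr3:98104447-98105724, 4 summits) had a shared rank of 17.6 against 34.6 for a control region of 3 summits. Tead1, a gene of a Hippo pathway transcription factor, had a control member (chr7:112825178-112826896, rank 29.1) that overlapped 2 db/db regions, and a db/db member (chr7:112696991-112698046, rank 16.6) with no control region.

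**Figure D3:**
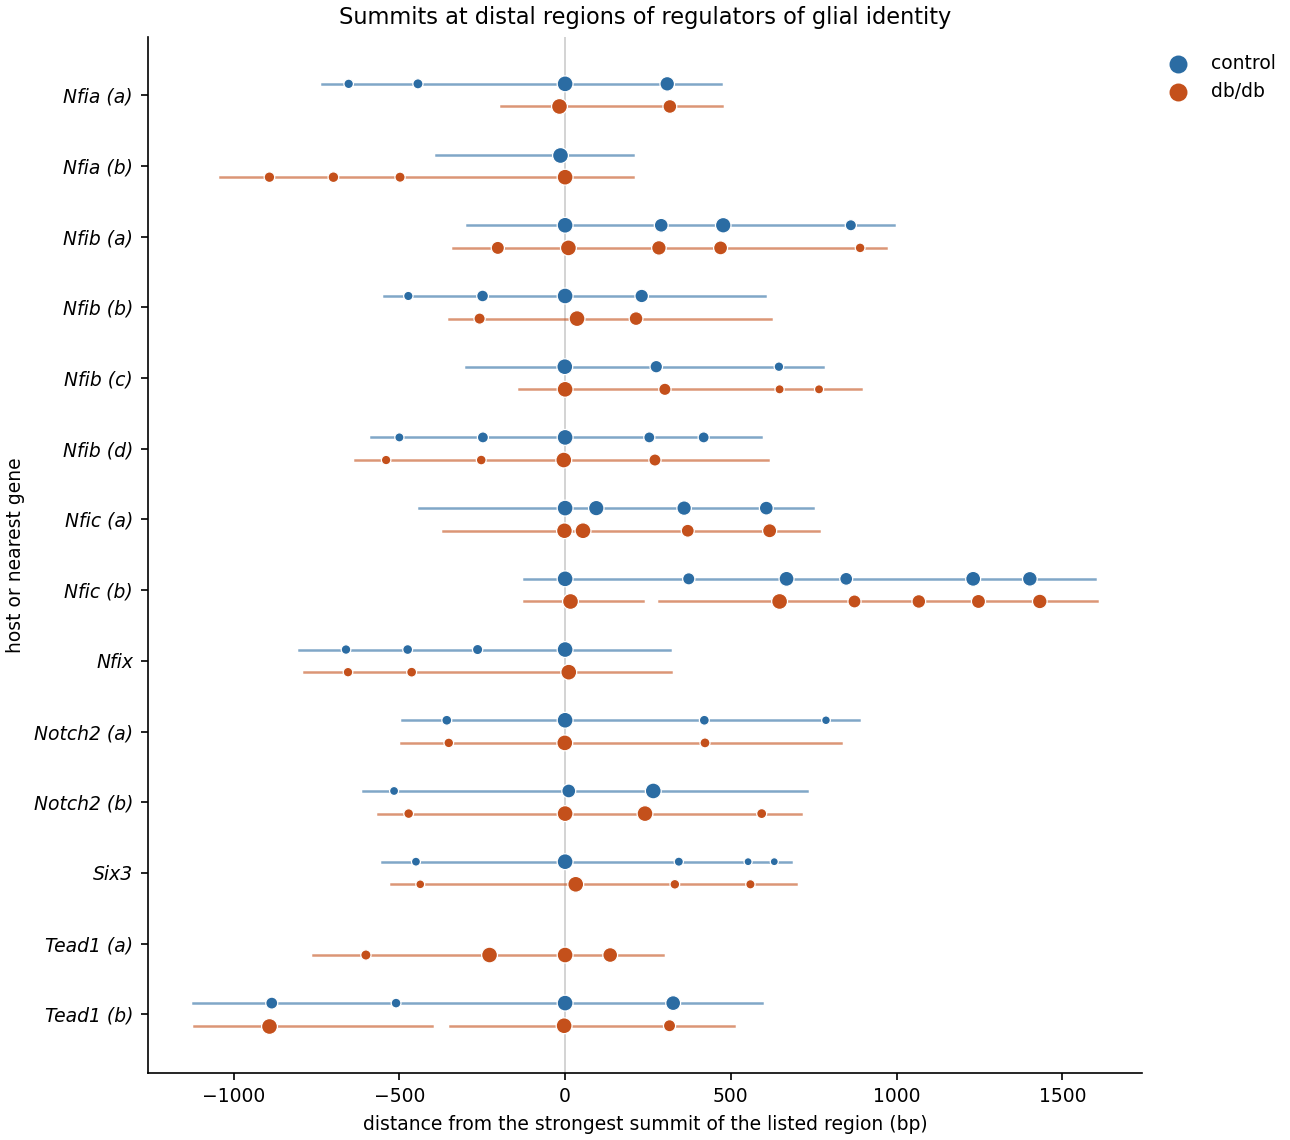
Summits of 14 loci with a member at a listed regulator, in the control list (blue) and the db/db list (orange), as distance (bp) from the strongest summit of the listed region; lines are merged regions, points are summits with an area that grows with the signal relative to the strongest, and letters order the loci of a gene by position. Strong summits line up between the lists at most loci while weak ones are often present in 1 list only, and Tead1 (a) has no control region.

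The nearest protein-coding gene was also taken in place of the nearest gene of any kind, an assignment chosen after seeing the data. Then 14 regulators in control and 16 in db/db had a member as host or nearest gene. The added genes were Sox8, Sox9, Hey1, Pax6, Id4, Zfp36l1 and Zfp36l2 in both lists, and Hes1 and Id3 in db/db. In db/db 1247 different coding genes were nearest to a member. The share over all coding genes was not computed, so no excess of regulators is read from these counts. Sox8 and Sox9 code for transcription factors of glia, Hey1 and Hes1 for Notch effectors, Id3 and Id4 for inhibitors of basic helix-loop-helix factors, and Zfp36l1 and Zfp36l2 for RNA-binding proteins. Six3 then had 3 members in control and 4 in db/db, the Six3os1 region shown above among them. The Paupar region at Pax6 lay 8702 bp from the nearest Pax6 start, had 4 summits in each list and shared ranks of 12.6 in control and 12.1 in db/db.

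Nearly all control members lay over a db/db region. No overlap was found for 14 of 989 control members, 1.42% (0.845 to 2.36), where 4.07% of all control regions had none. In db/db 341 of 1527 members had no control region, 22.3% (20.3 to 24.5), where 31.4% of all db/db regions had none. Wide regions overlap more easily. With the stricter demand that the strongest summit lie inside a region of the other list, 98.3% of control and 77.2% of db/db members were found there. A member of the other list was overlapped by 524 control members, 53.0%, and by 524 db/db members, 34.3%.

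The share without overlap depended on rank. Among db/db members it was 55.9% at ranks up to 20 and then, in steps of 20, 28.3%, 12.8%, 3.88% and 1.15%. Other distal db/db regions had 71.9%, 55.6%, 31.7%, 11.9% and 2.52%, above the members at each step. Among control members it was 3.16%, 0.885%, 0.820%, 0.8% and 0 of 28, which allows a share of up to 12.1%, and among other distal control regions 12.0%, 6.50%, 2.86%, 1.61% and 0.515%. Members found in 1 list alone were thus mostly weak, with a median rank of 11.2 in control and 22.1 in db/db.

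**Figure D4:**
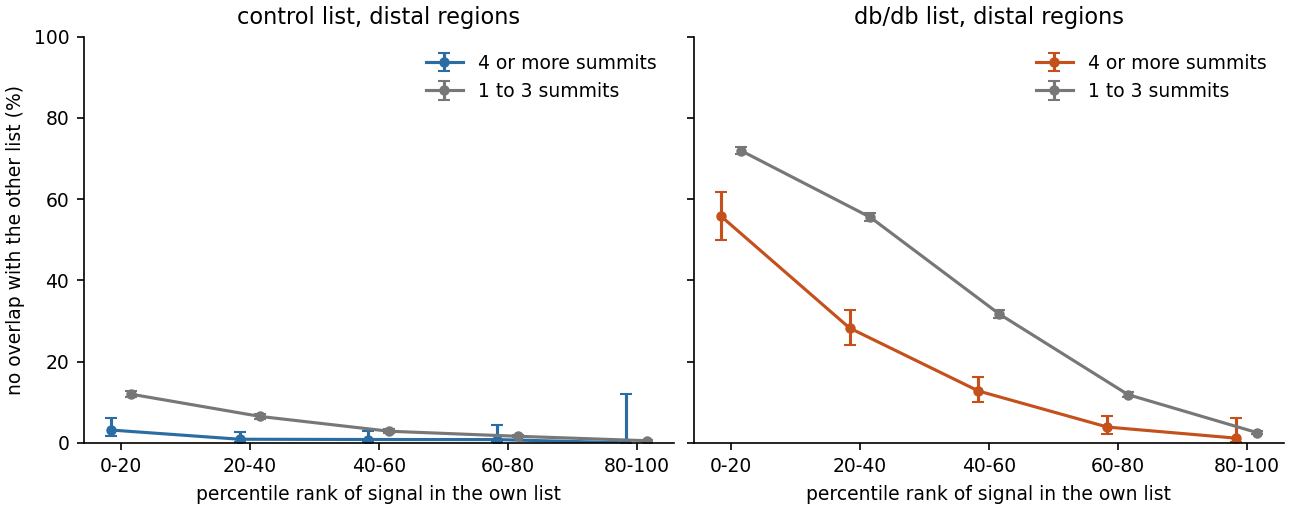
Share of distal regions without overlap with the other list (%, with 95% Wilson intervals) against the percentile rank of the signal in the own list in steps of 20, for the control list (left) and the db/db list (right), for regions with 4 or more summits and for other distal regions. In db/db the share falls from 55.9% to 1.15% for the members and from 71.9% to 2.52% for other distal regions.

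The strongest control members without a db/db region lay near Gm36967, with Snap25, a synaptic vesicle fusion gene, as the nearest coding gene (chr2:136623777-136624767, rank 73.1), in an intron of Pcdh15, a protocadherin gene (chr10:73700564-73701434, rank 50.2), and in an intron of Tspan5, a tetraspanin gene (chr3:138840614-138841713, rank 41.6). In db/db the strongest without a control region lay between genes, near Gm38324 (chr3:22316481-22317620, rank 80.8), Rps18-ps2 (chr4:9073605-9074946, rank 74.4) and A730004F24Rik (chr1:186481639-186482984, rank 72.5). The nearest coding genes of the last 3 were Tbl1xr1, Clvs1 and Tgfb2, at 113792, 195389 and 223330 bp. All 6 had 4 summits.

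Regions that overlapped 1 to 1 numbered 894 for the control members and 1141 for the db/db members. The db/db region over a control member had fewer summits in 52.9%, as many in 36.2% and more in 10.9%. The control region over a db/db member had fewer in 63.5%, as many in 28.5% and more in 7.98%. Members were chosen for a high number in their own list, so a lower number in the other list is no difference between genotypes. Regions of 3 summits, just below the threshold, stood opposite 28.5% of control and 32.8% of db/db members, and regions of 1 or 2 summits opposite 14.3% and 22.2%. The strongest summits lay at most 50 bp apart in 83.1% and 83.3%, against 93.8% and 93.9% for other distal regions.

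Chosen in both lists and overlapping 1 to 1 were 509 pairs. Their number of summits was the same in 322, or 63.3%. Of their single summits, 84.1% of the control ones had a db/db summit within 50 bp, and 83.9% of the db/db ones a control summit. Every summit was matched in this way in 195 pairs, 38.3%. The strongest summits were a median of 9 bp apart and within 50 bp in 83.1%. This share asks that the same summit lead in both lists, so it cannot be set against the shares of single summits.

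Ranked among shared regions, the members moved little on average. The shared rank was higher in db/db than in control by a median of 0.467 points for control members (quartiles −4.43 to 5.26), and the median change was −0.317 points for db/db members (−5.77 to 4.43) and 0.236 points for the pairs chosen in both lists (−4.50 to 4.70). Over all 42625 shared regions the median change was 0.0891 points. A rise of over 10 points was found for 12.1% of control members and 11.7% of db/db members, where 13.3% of all shared regions had one, and a fall of over 10 points for 10.7% and 14.1%, where 12.8% of all had one. These shares are near those of all shared regions.

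Ranked in the whole list, shared regions of every kind stood higher in db/db. The median change was 12.4 points for control members and 11.3 points for db/db members, against 10.4 and 10.5 points for other distal regions and 8.56 points for all shared regions. It was over 10 points for 60.5% and 55.5% of the members, where 44.7% of all shared regions passed this mark, and a fall of over 10 points was found for 0.783% and 2.10%, where 2.27% of all had one. The db/db list holds many weak regions beneath the shared ones. It was also reduced to the length of the control list by keeping the regions with the highest −log10 p. The median change then became −2.32 for control members and −3.12 for db/db members, and what sets this shift was not tested. The direction of the change thus depends on which regions the lists hold, and shared ranks are used below.

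**Figure D5:**
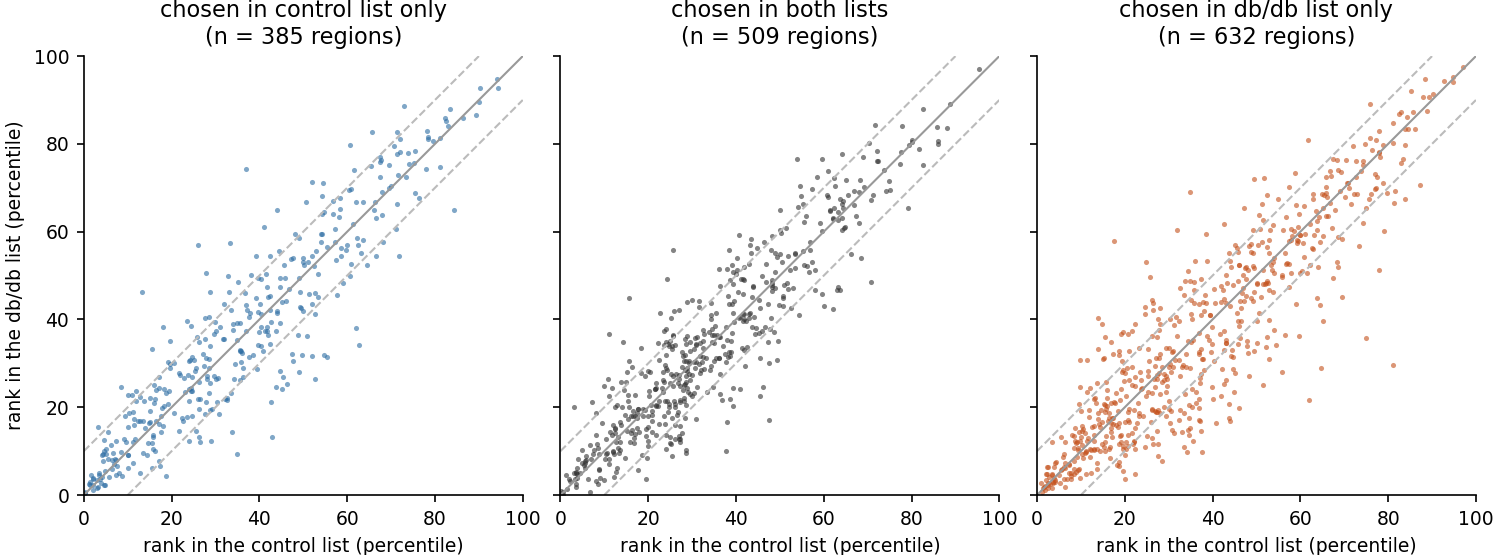
Percentile rank of the signal in the db/db list against the rank in the control list, both among regions shared 1 to 1, for members chosen in control only (385 regions), in both lists (509) and in db/db only (632); the solid line marks equal ranks and the dashed lines a difference of 10 points. The points follow the diagonal, with a median change of 0.236 points for regions chosen in both lists.

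Single members moved much farther than the average. The largest rises among control members were near 1700012D14Rik, with Eif4g2, a translation initiation gene, as the nearest coding gene (chr7:111211108-111212577), where the shared rank was 37.0 in control and 74.3 in db/db, near Gm10320 (chr13:98504152-98505245), with 13.3 and 46.4, and in an intron of Slc9a9, a sodium-proton exchanger gene (chr9:94732303-94733321), with 26.1 and 56.9. All 3 had 4 summits in control and 2 in db/db. The largest falls were near Gm43675 (chr3:21494782-21496545), from 47.4 to 17.0, near Samsn1 (chr16:75849364-75850736), from 42.8 to 13.3, and in an intron of Clic4, a gene of the chloride intracellular channel family (chr4:135254254-135255094), from 62.6 to 34.1. Here the summits went from 7 to 5, from 5 to 3 and from 4 to 3.

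Among db/db members the largest rises were near Gm38045 (chr14:116698428-116699389), where the shared rank was 17.6 in control and 57.8 in db/db, near Gm37624 (chr4:142772999-142774370), with 34.8 and 69.0, and in an intron of Tenm2, a teneurin gene (chr11:37110315-37111649), with 25.6 and 55.8. The largest falls were near Trim27, a tripartite motif gene (chr13:21233758-21234675), from 81.1 to 29.5, in an intron of Edil3, a gene of a secreted integrin ligand (chr13:89146004-89147112), from 61.9 to 21.7, and near Gm28825 (chr1:47036709-47037850), from 74.9 to 35.7. The fall at Trim27, of 51.6 points, was the largest of any member, and the db/db list gave the region 4 summits where control had 2. By ranks in the whole list the region near Gm1627, a member in both lists with 5 and 4 summits, was also among the 3 largest rises, with shared ranks of 15.7 and 44.9. The region near Vstm2l, of 4 summits in each list, was then the largest fall among control members, with shared ranks of 37.7 and 9.98. Whether such changes exceed the spread between replicates cannot be told from 1 list per genotype.

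The labelled cell type was checked against marker genes. All 12 Müller cell markers had a region at their TSS in both lists. Of the markers of other cells, 9 of 12 rod genes in control and 7 in db/db, 5 and 6 of 12 inner retinal neuron genes, 2 and 2 of 10 microglial genes, 5 and 5 of 10 vascular genes and 3 and 3 of 4 astrocyte genes had one. The lists thus also hold open promoters of genes that mark other cells, rods and astrocytes among them, and their part in the members was not tested.

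Müller cell markers with a member were Glul, Kcnj10, Aqp4 and Dkk3 in control and Kcnj10 and Gpr37 in db/db. These were 4 of the 57 distal regions of the markers in control (7.02%, 2.76 to 16.7) and 2 of 81 in db/db (2.47%, 0.680 to 8.56), beside the 3.27% and 3.29% of all distal regions. Kcnj10, the gene of the main inward rectifier potassium channel of Müller cells, had it in an intron 17339 bp from the start (chr1:172358363-172359686), with 4 summits in both lists and shared ranks of 11.9 in control and 15.9 in db/db. Glul, the glutamine synthetase gene, had a member of very low rank 6114 bp from its nearest start (chr1:153910904-153912413), with shared ranks of 0.305 and 0.364 and 4 summits in control against 3. Aqp4, the water channel gene, was nearest to a member of 4 summits in an intron of Chst9, with shared ranks of 42.4 and 34.5, where db/db had 3 summits. The intronic Dkk3 member (chr7:112143008-112144988) had 5 summits and a rank of 21.9 and overlapped 2 db/db regions. The Gpr37 member of db/db lay 244126 bp from the gene, with a shared rank of 10.6 against 22.3 in control.

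Genes that mark other cells also had members. In control they included Prkca and Slc6a9 of the inner retina, and Flt1 of vascular cells (rank 13.1). In db/db they were Prkca and Slc6a9, the microglial genes Cx3cr1 and P2ry12, and the vascular genes Pecam1, Kdr and Flt1. These were 2 of 32 distal regions of the inner retinal neuron genes in control (6.25%) and 2 of 48 in db/db (4.17%). For vascular genes they were 1 of 22 (4.55%) and 3 of 42 (7.14%), and for microglial genes 0 of 15 and 2 of 20 (10.0%). Of all distal regions 3.27% and 3.29% were members, and nothing is read from such small counts. Slc6a9, which codes for a glycine transporter, had the strongest of these members. It had 6 summits and a shared rank of 65.5 in control and 7 summits and 68.3 in db/db. Its strongest summit lay 1253 bp from a Slc6a9 start in control and 1243 bp in db/db, close to the 1 kb limit. The members in introns of Cx3cr1 (chr9:119970129-119971503, rank 7.47) and Pecam1 (chr11:106659625-106661111, rank 9.13) had no control region. Both ranked below 20 in the db/db list, where 55.9% of the members had none.

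The gene of the glucocorticoid receptor, a steroid-activated transcription factor, and its classical targets were also looked up because the study followed this receptor. Of 8 such genes on the autosomes, Zbtb16 and Ddit4 had a member in control and Zbtb16, Dusp1 and Ddit4 in db/db. These were 2 of the 25 distal regions of the genes in control (8.0%, 2.22 to 25.0) and 4 of 32 in db/db (12.5%, 4.97 to 28.1), again beside 3.27% and 3.29% of all distal regions, and nothing is read from such small counts. The Zbtb16 member (chr9:48662112-48663247) lay in an intron, with 4 summits in both lists and shared ranks of 36.2 and 31.3. At Ddit4, 12961 bp from its start, a region between genes (chr10:59964395-59965656) had 4 and 5 summits and shared ranks of 17.8 and 19.6. A second db/db member at Ddit4 (chr10:59942657-59944077) had 4 summits against 3 and shared ranks of 55.2 in db/db and 49.2 in control. The Dusp1 member (chr17:26513801-26514899) had 4 summits against 2 and shared ranks of 9.47 and 6.08.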

How the data were processed

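Peak lists of ATAC-seq on Müller cells were used, 1 per genotype, each attached to replicate 1. The authors deposited, besides a summit position, a score, a signal and −log10 p and −log10 q values per peak. The deposited signal was read as a ratio, as is usual for this file layout, but what it is relative to is not stated. The deposited score runs from 540 to 1000, and the smallest −log10 p is 2.00. The aligner, peak caller, its threshold, any pooling and the scaling of the signal are not given in the sources used here. The depth is unknown for the same reason. Signal and −log10 p were therefore compared directly within a list only, and between lists only as percentile ranks. Positions were read as mm10, and genes, exons and TSSs came from GENCODE M21. The other samples of the series, replicate 2 of each genotype included, were not analysed here.

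Merging, annotation, overlap (at least 1 bp) and ranking were computed with Python 3.11.15, numpy 2.4.6, pandas 2.3.3 and scipy 1.17.1, and drawn with matplotlib 3.10.9, after the steps had been tested on simulated data. Intervals of shares are 95% Wilson intervals and cover only the counting error. No test between genotypes was made. RefSeq promoter windows were used for sequence, and exonic sequence was rebuilt from annotated transcripts. A genome sequence was not used here, so most members have no printed sequence.

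The members and the gene lists were chosen with earlier results of these data known. The members named were, per list, the 5 with most summits, the 5 with the highest signal, those of listed regulators and markers, the 5 genes nearest to most members (ties by name), the 3 largest rises and falls in rank, and the 3 strongest without overlap. The same rule was applied to shared ranks, and Zfp608 and the members with printed sequence, Nfia and the listed markers apart, were added after values had been seen. Alternatives were other summit numbers, TSS sets and distances, overlap rules, −log10 q of at least 5, lists of equal length, ranking by −log10 p and normal scores. Members at some genes that this rule names are not reported here.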

Additional observations from a re-analysis of the deposited data

Results flagged for a closer look

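Chromosomes X and Y lay outside the rule, and distal regions with 4 or more summits were found there too, which is why they are listed here. The control list had 26 of them on chromosome X, 4.67% of 557 distal regions, and the db/db list had 32, 4.04% of 793. On chromosome Y the control list had 1 among 2 distal regions and the db/db list none among 2. No explanation was weighed for these counts.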

How the results depend on the processing

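No paired analysis was possible because there was 1 list per genotype, and for the same reason no replicate could be left out. For 20 results under 13 planned and 3 added alternatives, 182 values were recomputed. Of these, 119 were labelled the same, 60 moved and 3 changed sign. Shares and medians counted as the same inside the interval of the reported value. Counts have no interval and were called the same within a fixed fold difference, which took in 671 against 989 control regions. With at least 3 summits the number of regions was 3808 in control and 5655 in db/db (12.6% and 12.2% of distal regions), their median width 1102 and 1068 bp, their spacing 289 and 282 bp and their rank 38.7 and 45.3. Then 72.7% of the db/db regions overlapped a control region, 63.7% and 42.9% overlapped a chosen region, the change of rank in control was 11.5 points, and 13 and 14 regulators had one. With at least 5 summits there were 251 and 369 regions (0.830% and 0.796%), 1577 and 1495 bp wide, with a spacing of 262 bp in db/db and ranks of 30.9 and 40.6. Then 99.2% and 81.8% overlapped the other list, 44.6% and 30.4% a chosen region, and 3 and 1 regulators had one. These shifts follow from the number of summits asked for. With every summit over 1 kb from a TSS the control share was 3.04%. With TSSs of protein-coding genes only it was 3.49%, and 14 and 16 regulators had a region. With peaks of −log10 q of at least 5 the shares were 2.22% and 2.12% and the widths 1387 and 1349 bp. Control then had 671 regions in place of 989. The db/db list had 983, of which 82.8% overlapped the control list and 38.3% a chosen region, at 4 regulators. With the db/db list reduced by −log10 p to the length of the control list, 89.0% of control regions overlapped it and 48.2% a chosen region. In db/db there were then 1141 regions in place of 1527. Their share was 3.76%, the width 1338 bp, the spacing 279 bp, the rank 30.8 and the overlaps 91.8% and 41.8%. The change of rank then reversed, to −2.32 in control and −3.12 in db/db. Ranked by −log10 p, the median ranks were 43.9 and 49.2 and the changes 13.2 and 12.2 points. With normal scores the changes were 15.1 and 14.0. Among the alternatives chosen after seeing the data, ranks among shared regions gave changes of 0.467 and −0.317 points, the second reversed, and the nearest coding gene gave 14 and 16 regulators. Apart from the constructions named, the cause of these shifts was not tested. The depth behind the lists is unknown, so whether weak or missing summits lie below detection cannot be told.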
